A study of Mus musculus with 20 samples.

Results

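Tubular injury markers are genes that tubular epithelial cells switch on, or leak into urine and blood, when the kidney is damaged. The list described here held 10 of them: Havcr1, Lcn2, Spp1, Clu, Vim, Krt7, Krt8, Krt18, Krt19 and Krt20. They were matched by name in the array annotation, and the list was chosen with earlier results of these data known. All 10 were among the 27827 gene names of the array, they were carried by 14 probes, and all 10 could be tested in each of the 11 comparisons made. The scanner software marks each spot that stands well above its background, and 9 of the markers carried that mark on 3 or 4 arrays of every group. Against Control, Krt20 passed the filter only through the other group of each comparison, since its signal was well above background on 1 of 4 Control arrays.

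After ischemia the proximal tubule loses its brush border, and surviving cells flatten, dedifferentiate and take on a wound-repair program before they redifferentiate. In that state they display the phosphatidylserine receptor KIM-1 (Havcr1), which lets them engulf dying neighbours, and they secrete the iron-siderophore carrier NGAL (Lcn2), the matrix phosphoprotein osteopontin (Spp1) and the extracellular chaperone clusterin (Clu). They also rebuild their intermediate filaments, with the mesenchymal subunit vimentin (Vim) and with keratins of simple epithelia, which assemble as obligate pairs of a basic type II subunit (Krt7, Krt8) and an acidic type I subunit (Krt18, Krt19, Krt20).

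Kidney RNA came from C57BL/6 male mice aged 8 to 12 weeks, with 4 single-dye arrays in each of 5 groups. Control mice had no surgery and no treatment. IRI mice had both renal pedicles clamped for 45 min and were killed after 6 h of reperfusion. IRI+Hemin mice received 25 mg/kg of Hemin, an inducer of heme oxygenase 1, intraperitoneally 24 h before the same clamping, and Hemin mice received the same dose without surgery. IPC+IRI mice had ischemic preconditioning, a clamping of 15 min, 7 days before the same IRI. No group had a sham operation, so anesthesia and laparotomy were shared by the 3 injured groups and were absent from Control and Hemin. The labels number the replicates without tying them to separate animals, and the p-values below measure only the spread between these arrays.

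Values are given as log2 expression, the log2 of a gene's signal over the 75th percentile of its array, so that a difference of 1 is a 2-fold difference. The 75th percentile itself lay between 147 and 358 intensity units, 57.4% to 67.4% of gene names per array stood well above background, and no member's spot was saturated. A difference was called at an adjusted p below 0.05 (limma, Benjamini-Hochberg over all genes tested in the comparison). No slide held arrays of more than 1 group, and an effect of the slide cannot be told apart from that of the group. Control and IRI were scanned on the same day, and so were IPC+IRI and Hemin, and IRI+Hemin was scanned alone on another day, so that for the remaining pairs of groups scan day and group cannot be told apart.

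The tissue was checked against marker lists. All 16 proximal tubule genes on the array were well above background on all 20 arrays. Urothelium is the lining of the renal pelvis, and it also carries simple keratins. The summed signal of 7 urothelium markers, in multiples of the 75th percentile, differed more between arrays of a group than between groups. It was 1.54, 4.42, 0.653 and 1.03 in Control replicates 1 to 4, and 5.75, 0.921, 0.473 and 3.93 in IRI. It was 1.21, 1.37, 0.902 and 2.28 in IRI+Hemin, 0.377, 4.48, 0.431 and 0.497 in IPC+IRI, and 2.50, 0.955, 2.99 and 1.22 in Hemin. The results were therefore also computed without the array highest in these markers in each group, and such values are given where a call changed. Neutrophils, the source from which Lcn2 was named, were followed by 11 genes. Their summed signal was 0.486 to 0.758 in Control, 0.663 to 1.78 in Hemin, 2.75 to 8.68 in IRI, 2.38 to 10.1 in IRI+Hemin and 6.60 to 20.3 in IPC+IRI. In bulk tissue, a change in the number of cells of a type and a change in RNA per cell cannot be told apart.

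**Figure D1:**
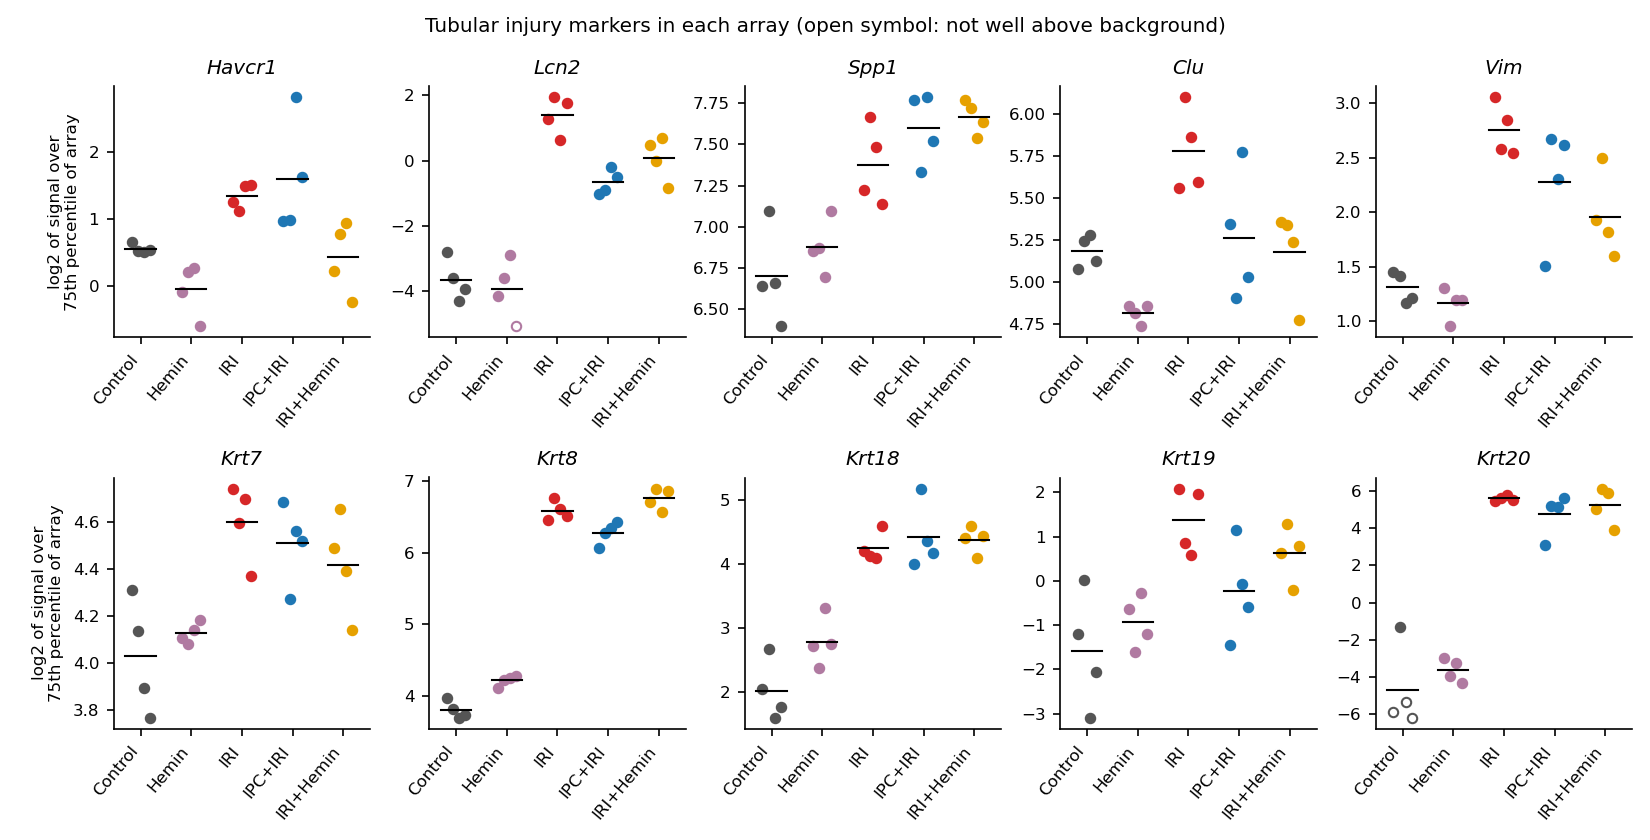
Log2 expression (signal over the array's 75th percentile, y axis of each panel) of the 10 markers in the 20 arrays, by group. A point is 1 array, a line is the mean of the 4 arrays of a group, and an open symbol was not well above background. In IRI, Krt20 lies between 5.46 and 5.78 and Krt8 between 6.45 and 6.77, far above Control, whereas Clu and Krt7 move by less than 1 log2 unit.

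In IRI vs Control, which sets injured kidneys against kidneys without surgery, 9 of the 10 markers were called higher and none lower. Over all genes tested, 17.1% were called higher and 33.9% lower. The markers had a median log2 fold change of 1.84, against -0.17 for the 17719 genes tested. The signals of IRI and Control arrays did not overlap for any of the 10 markers, with IRI higher, a pattern held by 14.8% of all genes with values on all arrays of both groups. The exact two-sided permutation test of 4 against 4 arrays gave its smallest possible p of 0.029 for each of them.

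Among the secreted and surface markers, Lcn2 changed most. Its log2 expression in Control replicates 1 to 4 was -2.79, -3.60, -4.29 and -3.93, and in IRI it was 1.29, 1.94, 0.63 and 1.77. All IRI arrays thus lay above the 75th percentile and all Control arrays far below it. The log2 fold change was 5.06 (SE 0.43, adjusted p 8.14e-08), or 33.3-fold. The neutrophil signal moved the same way, and S100a8, the subunit of calprotectin stored in neutrophils, rose by 4.05 (SE 0.66). The part of neutrophils in the Lcn2 value was not tested.

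Spp1, which binds integrins and CD44, was high in every group. Control arrays read 6.64, 7.10, 6.66 and 6.40, and IRI arrays 7.22, 7.67, 7.48 and 7.14. The highest Control array came close to the lowest IRI array without reaching it, and the log2 fold change was 0.68 (SE 0.15, adjusted p 0.00119). Clu read 5.08, 5.24, 5.28 and 5.12 in Control and 5.56, 6.10, 5.86 and 5.59 in IRI. The groups were separate, with a difference of 0.59 (SE 0.17, adjusted p 0.00753), or 1.51-fold.

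Havcr1, the marker most often used for proximal tubule injury, was the exception. It read 0.66, 0.51, 0.50 and 0.53 in Control and 1.26, 1.12, 1.49 and 1.51 in IRI. Every IRI array was above every Control array. The log2 fold change of 0.79 (SE 0.33, 95% interval 0.11 to 1.48) had an adjusted p of 0.0503 in limma, just above the threshold, in a fit whose spread is shared by all 5 groups. With the Control and IRI arrays fitted alone, it was called higher (adjusted p 7.76e-04).

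The array carried a pair of 60-base Havcr1 probes, shown because they gave different sizes for the same gene. In build mm9, probe A_51_P371740 mapped to chr11:46587247-46592034, a stretch of 4788 bases, so that it crossed at least 1 exon junction. Probe A_51_P371745 mapped to the 60 unbroken bases of chr11:46569677-46569736. Both sequences are printed in lower case throughout, as they are on the array.
A_51_P371740: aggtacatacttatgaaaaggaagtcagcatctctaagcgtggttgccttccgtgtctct
A_51_P371745: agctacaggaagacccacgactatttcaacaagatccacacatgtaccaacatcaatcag

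The junction probe read -2.27, -2.39, -2.94 and -3.11 in Control and -0.092, -1.24, -0.36 and 0.075 in IRI. The other probe read 1.56, 1.41, 1.43 and 1.47 in Control and 1.94, 1.97, 2.27 and 2.21 in IRI. IRI was above Control without overlap on both. The log2 fold change was 2.27 (SE 0.63, adjusted p 0.00639) on the junction probe and 0.63 (SE 0.24, adjusted p 0.0394) on the other, each adjusted over all probes tested. Since linear signals were averaged over the probes of a gene, the probe with the larger linear signal, A_51_P371745, weighed more in the value for Havcr1.

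**Figure D2:**
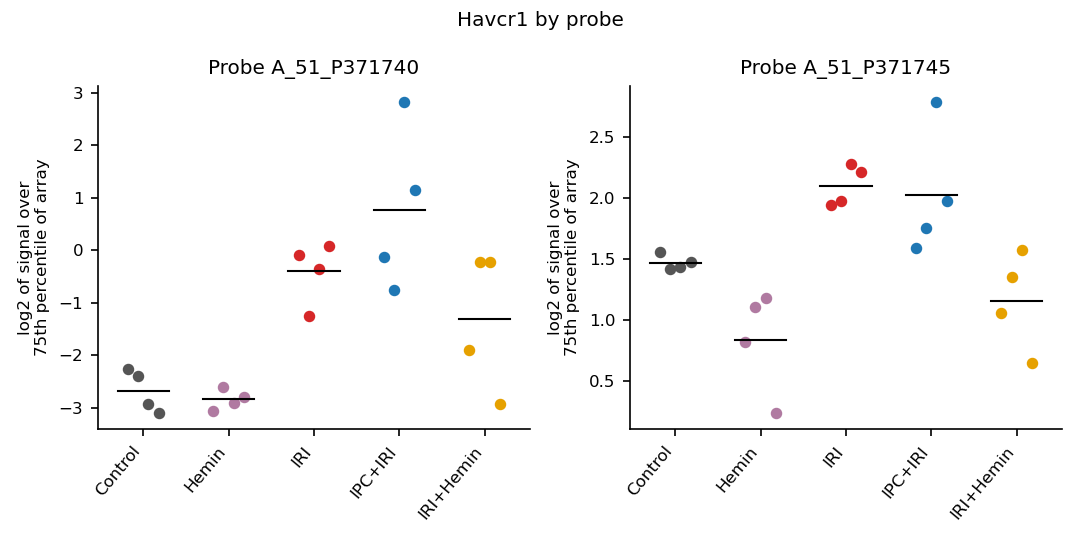
Log2 expression (signal over the array's 75th percentile) of the junction probe A_51_P371740 (left) and of probe A_51_P371745 (right), by group, with 1 point per array and a line at the mean of 4 arrays. The axes differ: the junction probe spans from -3.11 in Control to 2.83 in IPC+IRI, the other probe from 0.23 in Hemin to 2.79 in IPC+IRI.

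The intermediate filament genes rose together in IRI, by very different amounts. Vim read 1.45, 1.42, 1.16 and 1.21 in Control and 3.05, 2.58, 2.85 and 2.55 in IRI, with no overlap and a log2 fold change of 1.45 (SE 0.22, adjusted p 3.88e-05). Of its probe pair, A_52_P287532 was well above background on no array, and the change came from A_51_P392687 alone. Krt8, the type II partner of Krt18, had the smallest standard error of the list. It read 3.96, 3.82, 3.70 and 3.73 in Control and 6.45, 6.77, 6.61 and 6.52 in IRI. The groups stood 2.79 apart (SE 0.11, adjusted p 1.38e-11), or 6.89-fold, and its probe pair gave 2.83 and 2.75.

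Krt18 read 2.04, 2.67, 1.59 and 1.76 in Control and 4.20, 4.12, 4.09 and 4.59 in IRI. The difference was 2.23 (SE 0.26, adjusted p 2.06e-06), close to that of its partner. Krt7, a type II keratin of ducts, moved least. It read 4.31, 4.14, 3.89 and 3.77 in Control and 4.74, 4.60, 4.70 and 4.37 in IRI, and the groups were separate by a narrow margin with a log2 fold change of 0.57 (SE 0.13, adjusted p 0.00171).

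Krt19, a type I keratin without the usual tail domain, varied widely between arrays of a group. It read -1.21, 0.012, -3.09 and -2.05 in Control and 2.08, 0.87, 0.59 and 1.96 in IRI. The arrays with most urothelium signal, Control replicate 2 and IRI replicate 1, were also highest in Krt19 in their groups. The log2 fold change was 2.96 (SE 0.60, adjusted p 5.0e-04), and without those arrays it was 3.25 (adjusted p 3.27e-04).

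Krt20, a type I keratin of intestinal epithelium and urothelial umbrella cells, gave the largest difference of the list. Control arrays read -5.87, -1.32, -5.31 and -6.17, and only replicate 2 was well above background. IRI arrays read 5.46, 5.58, 5.78 and 5.50. The highest Control array, the same that was highest in urothelium markers, still lay far below the lowest IRI array. The fitted log2 fold change of 10.24 (SE 0.81, adjusted p 3.08e-08) depends on Control signals that were mostly not above background. With each Control array set to the higher of its own Krt20 signal and its lowest signal well above background, the mean of IRI was at least 1016-fold higher. This bound rests on Control replicate 2, without which it was 2075-fold (1164-fold in IPC+IRI and 1613-fold in IRI+Hemin). In IRI the urothelium signal ran from 0.473 to 5.75 and Krt20 from 5.46 to 5.78. In IPC+IRI, replicate 1 was lowest both in urothelium signal (0.377) and in Krt20 (3.07). Within groups the Pearson r of Krt20 with that signal was 0.332 over 20 arrays, each centred on its group. The part of urothelium in the Krt20 value was not tested.

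**Figure D3:**
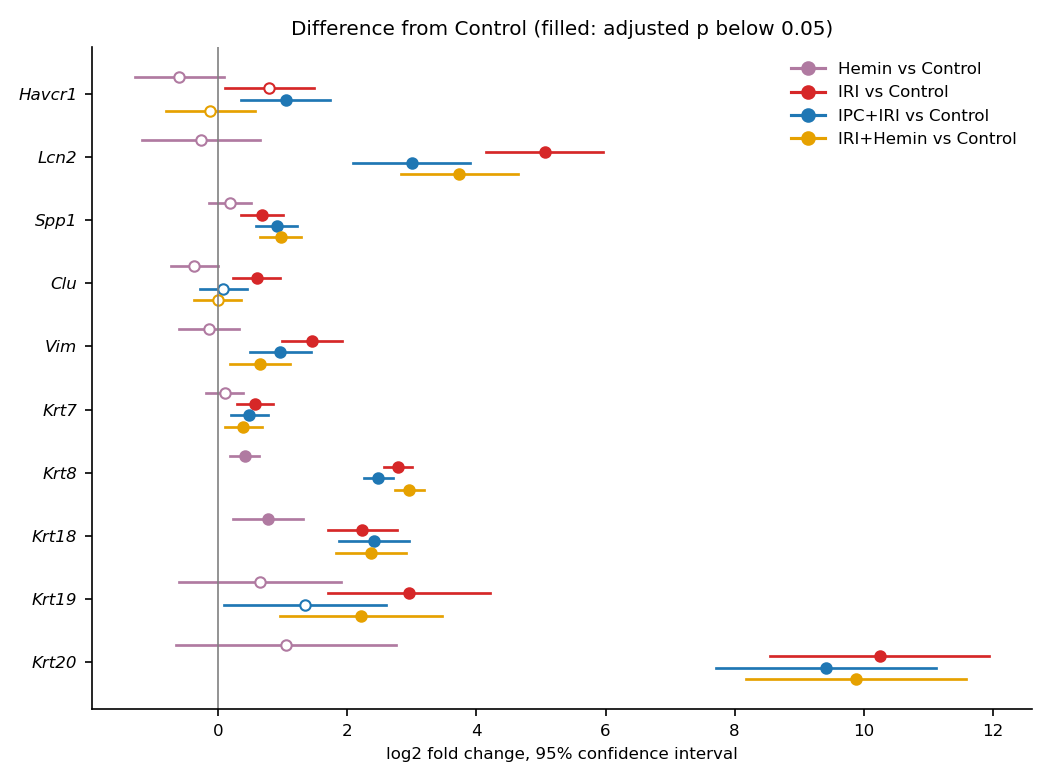
Log2 fold change against Control (x axis, with 95% confidence interval) of each marker in Hemin, IRI, IPC+IRI and IRI+Hemin, from a fit of 20 arrays. Filled points were called at an adjusted p below 0.05. Krt20 reads between 9.41 and 10.24 in the 3 injured groups, as fitted against Control arrays of which 1 of 4 was well above background (the lower bounds run from 9.15 to 9.99), and Krt8 and Krt18 are the only filled points of Hemin.

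In IPC+IRI vs Control, which sets preconditioned and injured kidneys against uninjured ones, 8 of 10 markers were called higher and none lower, with 23.2% of all genes called higher and 32.8% lower. This comparison and the preceding one share the Control arrays. Lcn2 in IPC+IRI read -1.03, -0.90, -0.20 and -0.50, all above Control, for a log2 fold change of 3.00 (SE 0.43, adjusted p 2.00e-05). Havcr1 read 0.97, 0.99, 2.81 and 1.62, the widest spread of any group, and its difference of 1.05 (SE 0.33) was called (adjusted p 0.0113). With arrays left out in turn the difference ran from 0.64, without IPC+IRI replicate 3, to 1.26, and it stayed called (adjusted p up to 0.0415). It was not called on A_51_P371745 alone (0.56, adjusted p 0.0605), whereas the junction probe gave 3.45 (SE 0.64, adjusted p 1.89e-04).

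Spp1 rose by 0.91 (SE 0.15), Vim by 0.97 (SE 0.22), Krt7 by 0.48 (SE 0.13), Krt8 by 2.48 (SE 0.11) and Krt18 by 2.41 (SE 0.26), with adjusted p between 1.32e-10 and 0.00539. Of 16 alternative settings, the 2-fold cutoff among them, 2 ended the call of Vim (values down to 0.14, adjusted p up to 0.393). The call of Krt7 was lost in 3 of them (values down to 0.27, adjusted p up to 0.122). Krt20 read 3.07, 5.17, 5.12 and 5.61, with replicate 1 well below the others, and was at least 570-fold higher than Control. Clu and Krt19 were the markers not called. Clu read 5.34, 4.90, 5.77 and 5.03, on both sides of Control, with a difference of 0.081 (95% interval -0.28 to 0.44, adjusted p 0.710). Krt19 read -1.45, 1.15, -0.076 and -0.58 and overlapped Control, with a difference of 1.35 (95% interval 0.092 to 2.60, adjusted p 0.0634). IPC+IRI replicate 2, the highest, was also the array with most urothelium signal. Without the arrays highest in that signal, the Krt19 difference was 1.41 and was called (adjusted p 0.0378).

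With IRI+Hemin against Control, 8 of 10 markers were called higher and none lower, with 24.4% of all genes called higher and 33.2% lower, again with the same Control arrays. Krt8 read 6.71, 6.89, 6.57 and 6.86 and had a log2 fold change of 2.96 (SE 0.11, adjusted p 6.23e-12). Krt18 differed from Control by 2.37 (SE 0.26), Lcn2 by 3.74 (SE 0.43), Krt19 by 2.21 (SE 0.60), Spp1 by 0.97 (SE 0.15), Vim by 0.65 (SE 0.22) and Krt7 by 0.39 (SE 0.13). The calls of Vim and Krt7 were lost with quantile normalization (adjusted p 0.0748 and 0.185), with scaling by probes well above background (0.0557 and 0.0686) and without IRI+Hemin replicate 2 (0.0786 and 0.0700). Vim was at -0.11 with the mean of log2 values over its probes. Krt20 read 5.0, 6.09, 5.89 and 3.88 and was at least 789-fold higher. Havcr1 and Clu were not called, at -0.12 (95% interval -0.81 to 0.56) and -0.0059 (95% interval -0.37 to 0.35). The sign for Havcr1 depended on the probe, since the junction probe alone gave 1.36 (adjusted p 0.0757).

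In IPC+IRI vs IRI, which asks what preconditioning changed in injured kidneys, 4 of 10 markers were called lower and none higher, with 17.8% of all genes called lower and 26.3% higher. The median of the markers was -0.40, against 0.093 over all genes tested. Lcn2 fell by 2.06 on the log2 scale (SE 0.43, adjusted p 0.0010), a 4.18-fold lower level, and the 4 IPC+IRI arrays, at most -0.20, did not reach the lowest IRI array at 0.63. The neutrophil signal was not lower in IPC+IRI, where it was 6.60 to 20.3 against 2.75 to 8.68 in IRI, and 2 of its 8 genes tested were called higher and none lower. Of 8 endothelium genes, 5 were called lower and none higher (median -0.81), among them the junction protein Cdh5 by 1.54 (SE 0.27). Their summed signal was 12.4 in IPC+IRI replicate 1 and 21.5 to 30.4 on the other arrays of the group, against 20.8 to 27.4 in IRI. IPC+IRI replicate 1 was also lowest of its group in fibroblast and mural signal (10.8 against 17.8 to 27.4). The same held for its macrophage and lymphocyte signal (2.40 against 4.52 to 7.14). Among the markers, it was lowest of its group in Havcr1, Lcn2, Vim, Krt8, Krt18, Krt19 and Krt20. The part of these differences in the marker values was not tested. Lcn2 was called lower under every alternative setting, also without any single array.

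The other 3 falls were less firm. Clu fell by 0.51 (SE 0.17, adjusted p 0.0212), with IPC+IRI replicate 3 at 5.77 inside the IRI range. Krt8 fell by 0.31 (SE 0.11, adjusted p 0.0251). It read 6.07, 6.28, 6.34 and 6.43 in IPC+IRI, all just below the lowest IRI array at 6.45, a 1.24-fold lower level. Without scaling between arrays its difference was 0.0087, and the median of all genes moved to 0.41 in that setting. Krt8 and Lcn2 were the markers whose groups did not overlap, against 37.9% of all genes in either direction. Krt19 fell by 1.61 (SE 0.60, adjusted p 0.0356) with overlapping groups. It was 1.84 lower (adjusted p 0.0141) without the arrays highest in urothelium markers, and 0.86 lower (adjusted p 0.0390) with that signal as a covariate.

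Without scaling between arrays and with the deposited matrix, Lcn2 was the only marker called lower, and Spp1 was called higher (0.54, adjusted p 0.0346, and 0.37, adjusted p 0.0455). Over all genes, 5910 of 17668 were called higher and 603 lower without scaling, and 4492 of 15591 higher and 1659 lower with the matrix. Leaving out IRI replicate 2, IRI replicate 3 or IPC+IRI replicate 1 reduced the 4 calls to 2, and so did SAM and a fit of these 8 arrays alone. The 6 markers not called were Havcr1 at 0.25 (95% interval -0.43 to 0.94), Spp1 at 0.23 (-0.093 to 0.54), Vim at -0.48 (-0.95 to -0.017), Krt7 at -0.091 (-0.37 to 0.19), Krt18 at 0.18 (-0.36 to 0.72) and Krt20 at -0.83 (-2.53 to 0.86). For Krt20 the interval is wide and reaches well below 0 as well as above it, so the data do not show that its level was alike in the 2 groups.

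**Figure D4:**
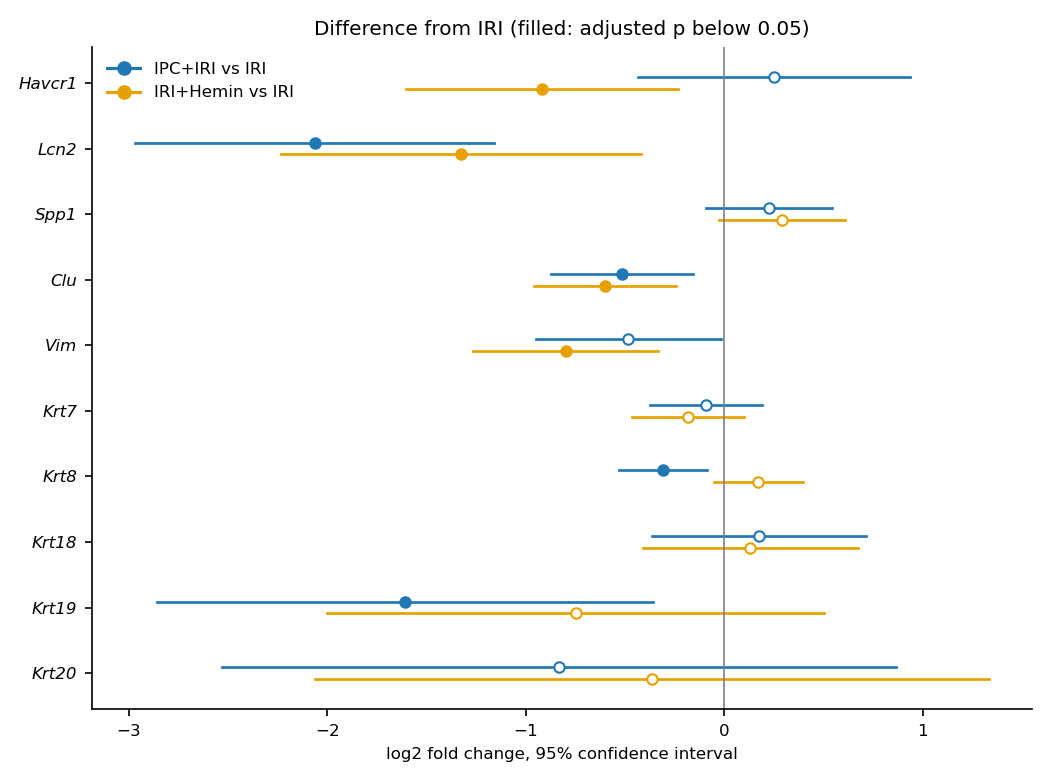
Log2 fold change against IRI (x axis, with 95% confidence interval) of each marker in IPC+IRI and IRI+Hemin, from a fit of 20 arrays. Filled points were called at an adjusted p below 0.05. Lcn2 is at -2.06 and -1.32 and Clu at -0.51 and -0.60, while Krt18 and Spp1 lie slightly above 0 in both.

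In IRI+Hemin vs IRI, which asks what Hemin given before ischemia changed, 4 of 10 markers were called lower and none higher, with 18.1% of all genes called lower and 26.3% higher. The median of the markers was -0.48 against 0.082 for all genes tested, and the comparison shares its IRI arrays with the preceding one. Havcr1 read 0.23, 0.77, 0.94 and -0.23 in IRI+Hemin, all below the lowest IRI array at 1.12. It fell by 0.92 (SE 0.33, adjusted p 0.0293), or 1.89-fold, and the probe pair gave -0.91 (adjusted p 0.249) on the junction probe and -0.94 (SE 0.24, adjusted p 0.00430) on the other. Clu read 5.35, 5.34, 5.24 and 4.77, also below all IRI arrays, and fell by 0.60 (SE 0.17, adjusted p 0.00857).

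Vim read 1.92, 2.50, 1.81 and 1.59 and fell by 0.80 (SE 0.22, adjusted p 0.00727), 1.74-fold lower, with the highest array just under the lowest of IRI. Lcn2 read 0.47, -0.0067, 0.69 and -0.83 and fell by 1.32 (SE 0.43, adjusted p 0.0189), 2.50-fold lower. IRI+Hemin replicate 3 was above the lowest IRI array, and the exact permutation test gave p = 0.0571. Groups did not overlap for 3 markers, Havcr1, Clu and Vim, against 38.9% of all genes in either direction.

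IRI+Hemin replicate 4 was lowest of its group in Havcr1, Lcn2, Clu, Vim, Krt7 and Krt20, and it was highest in urothelium markers (2.28). Its summed proximal tubule signal was 1421 against 800.5 to 946 on the other arrays of the group, its thick limb and distal tubule signal 496 against 338 to 404, and its neutrophil signal 2.38 against 5.47 to 10.1. Between IRI+Hemin and IRI, 4 of 9 thick limb and distal tubule genes were called lower and 2 higher (median -0.35), against 18.1% and 26.3% of all genes. The part of these differences in the falls was not tested. Without IRI+Hemin replicate 4, 2 markers were called lower. Without the array highest in urothelium markers in each group, Clu alone was called, and Havcr1 (-0.73, adjusted p 0.133), Lcn2 (-1.06, adjusted p 0.0850) and Vim (-0.58, adjusted p 0.0833) were lower without passing the threshold. Without IRI replicate 4, Havcr1 (-0.86, adjusted p 0.0647) and Lcn2 (-1.20, adjusted p 0.0512) were not called. Keratins were not called in either direction: Krt8 differed by 0.17 (95% interval -0.050 to 0.39), Krt18 by 0.13 (-0.41 to 0.67), Krt7 by -0.18 (-0.46 to 0.099), Krt19 by -0.75 (-2.0 to 0.50) and Krt20 by -0.36 (-2.06 to 1.34). Spp1 was 0.29 higher (adjusted p 0.128). Without scaling between arrays no marker was called lower, and Spp1 was called higher (0.65, adjusted p 0.0116). In that setting 6539 of 17835 genes were called higher and 620 lower, with a median of 0.45. With normexp background correction Krt8 was called higher (0.44, adjusted p 0.0223), and with the deposited matrix Spp1 (0.50, adjusted p 0.00859) and Krt8 (0.39, adjusted p 0.0306) were called higher and Havcr1 alone lower. Over all genes, normexp gave 2625 of 17835 higher and 3266 lower, and the matrix 4989 of 15615 higher and 1514 lower.

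Hemin vs Control compares kidneys with and without the drug, both without surgery. In it 2 of 10 markers were called higher and none lower, with 18.5% of all genes called higher and 17.6% lower. The count was near the share of all genes called higher, and the markers called were Krt8 and its partner Krt18. Krt8 read 4.10, 4.22, 4.25 and 4.28 in Hemin, above all Control arrays, and rose by 0.41 (SE 0.11, adjusted p 0.00628). Krt18 read 2.71, 2.37, 3.31 and 2.75, with replicate 2 inside the Control range, and rose by 0.77 (SE 0.26, adjusted p 0.0268). Hemin replicate 3, highest in Krt18, was also highest in urothelium markers.

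Quantile normalization ended both calls (Krt8 0.23, adjusted p 0.107, and Krt18 0.65, adjusted p 0.0692), scaling by probes well above background ended that of Krt18 (0.65, adjusted p 0.0618), and Krt18 was not called without Hemin replicate 3, Control replicate 3 or Control replicate 4. Lcn2 in Hemin read -4.14, -3.58, -2.89 and -5.07, well above background on 3 of 4 arrays, and differed by -0.27 (adjusted p 0.662). Krt20 read -2.98, -3.91, -3.26 and -4.32, well above background on all 4, and differed from Control by 1.05 (adjusted p 0.329). Krt20 entered this comparison through Hemin alone, and by the bound used above it was at least 1.73-fold higher in Hemin. Without Control replicate 2, the only Control array on which it was well above background, the bound was 3.54-fold. The fit then passed the threshold (adjusted p 0.00491), as it did without the arrays highest in urothelium markers (adjusted p 0.0106). Both fits lack that Control array, so they are not separate results. The Control signals left in them were not well above background, so these p-values do not measure a difference from a known Control level. Havcr1 read -0.089, 0.21, 0.26 and -0.60, and Clu 4.85, 4.81, 4.74 and 4.85. Both lay below all Control arrays without being called, at -0.60 (adjusted p 0.158) and -0.37 (adjusted p 0.102). With Krt8 they were the 3 of 10 markers whose groups did not overlap, against 37.6% of all genes in either direction. Havcr1 and Clu were called lower by SAM and in a fit of these 8 arrays alone (Havcr1 adjusted p 0.0293, Clu 0.0121). Of 18579 genes tested, these settings called 4465 and 3636 lower. Clu was also called lower with quantile normalization (-0.53, adjusted p 0.0167) and with scaling by probes well above background (-0.48, adjusted p 0.0304), and Havcr1 on A_51_P371745, its brighter probe (-0.64, adjusted p 0.0498 over all probes). Without scaling between arrays Clu was at 0.20.

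The injured groups were also set against Hemin, in comparisons added after the data were seen. IPC+IRI and Hemin, scanned on the same day, differed in 9 markers called higher and none lower, with 13.2% of all genes called higher and 22.8% lower. Havcr1 was 1.65 higher (SE 0.33, adjusted p 8.62e-04), Lcn2 3.26, Krt8 2.06 and Krt20 8.36, and only Krt19 was not called (0.69, adjusted p 0.383). The calls of Clu (0.45, adjusted p 0.0495) and Krt7 (0.38, adjusted p 0.0340) were lost in most fits that left out 1 array, and Krt7 was at -0.26 with the deposited matrix. In IRI+Hemin vs Hemin, where both groups had the drug, 7 markers were higher and none lower, with 16.5% of all genes higher and 27.9% lower, without Havcr1 (0.48, adjusted p 0.246), Clu (0.36, adjusted p 0.0959) and Krt7 (0.29, adjusted p 0.0879). Without the arrays highest in urothelium markers Clu (0.47, adjusted p 0.0379) and Krt7 (0.39, adjusted p 0.0406) were called too. The call of Krt19 (adjusted p 0.0427) was lost in most fits that left out 1 array, with adjusted p up to 0.113. In IRI vs Hemin all 10 were higher, with 20.4% of all genes higher and 39.3% lower.

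Whether the effect of IRI differed with and without Hemin was tested by the interaction of the 2. No marker was called in limma (7.79% of all genes were, in either direction), and none had an unadjusted p below 0.05. SAM was not run for this term. The lowest was that of Vim, at -0.65 (SE 0.32, p 0.0529, adjusted p 0.231). The value of Krt20, -1.41, rests on Control arrays of which 1 of 4 was well above background, and it ran from -2.53 to -0.91 with arrays left out in turn. The falls in IRI+Hemin vs IRI are thus not shown to differ from what Hemin did without ischemia.

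IPC+IRI and IRI+Hemin differed in 2 markers. Havcr1 was higher in IPC+IRI by 1.17 (SE 0.33, adjusted p 0.0274), 2.25-fold, where 6.43% of all genes were called higher. Krt8 was lower by 0.48 (SE 0.11, adjusted p 0.00785), where 5.61% were called lower. The arrays of the groups did not overlap for these 2 of 10 markers, near the 16.7% of all genes in either direction. No marker was called by SAM, in a fit of these 8 arrays alone or without scaling between arrays. Leaving out IRI+Hemin replicate 1 or 4, or IPC+IRI replicate 3 or 4, left 1 call. With arrays left out in turn Havcr1 ran from 0.77, without IPC+IRI replicate 3, to 1.38, with adjusted p up to 0.0718. Without the arrays highest in urothelium markers Havcr1 was not called (1.15, adjusted p 0.0581).

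The order of the group means differed between markers. For Lcn2 it was Hemin, Control, IPC+IRI, IRI+Hemin and IRI from low to high. The steps from Control to IPC+IRI and from IRI+Hemin to IRI were called, and the remaining steps between neighbours were not. For Krt8 it was Control, Hemin, IPC+IRI, IRI and IRI+Hemin, and only IRI and IRI+Hemin were neighbours without a called difference. For Krt20 it was Control, Hemin, IPC+IRI, IRI+Hemin and IRI, and only the step from Hemin to IPC+IRI was called. Havcr1 ran from Hemin through IRI+Hemin and Control to IRI and IPC+IRI, and no step between neighbours was called. Spp1 was highest in IRI+Hemin (7.67 ± 0.10, SD, n = 4), next to IPC+IRI (7.60 ± 0.22) and IRI (7.38 ± 0.24), and these neighbours did not differ past the threshold.

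Krt19 and Krt18 moved with the urothelium signal between arrays of the same group, and the other markers did so less. With each array centred on its group, Pearson r with the log2 of the summed urothelium signal was 0.872 for Krt19 and 0.804 for Krt18 over 20 arrays. It was 0.369 for Vim, 0.332 for Krt20, 0.112 for Lcn2, -0.049 for Krt8, -0.22 for Krt7, -0.26 for Havcr1, -0.34 for Spp1 and -0.59 for Clu. The arrays share the scaling by 1 percentile each, so the values are a description. Krt8 and Krt18, partners in a filament, thus differed in how they followed this signal within groups while rising by similar amounts in IRI. With the urothelium signal as a covariate, Krt18 in IPC+IRI was 0.47 above IRI (adjusted p 0.0394), where it had not been called, whereas without the arrays highest in that signal it was at -0.089.

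**Figure D5:**
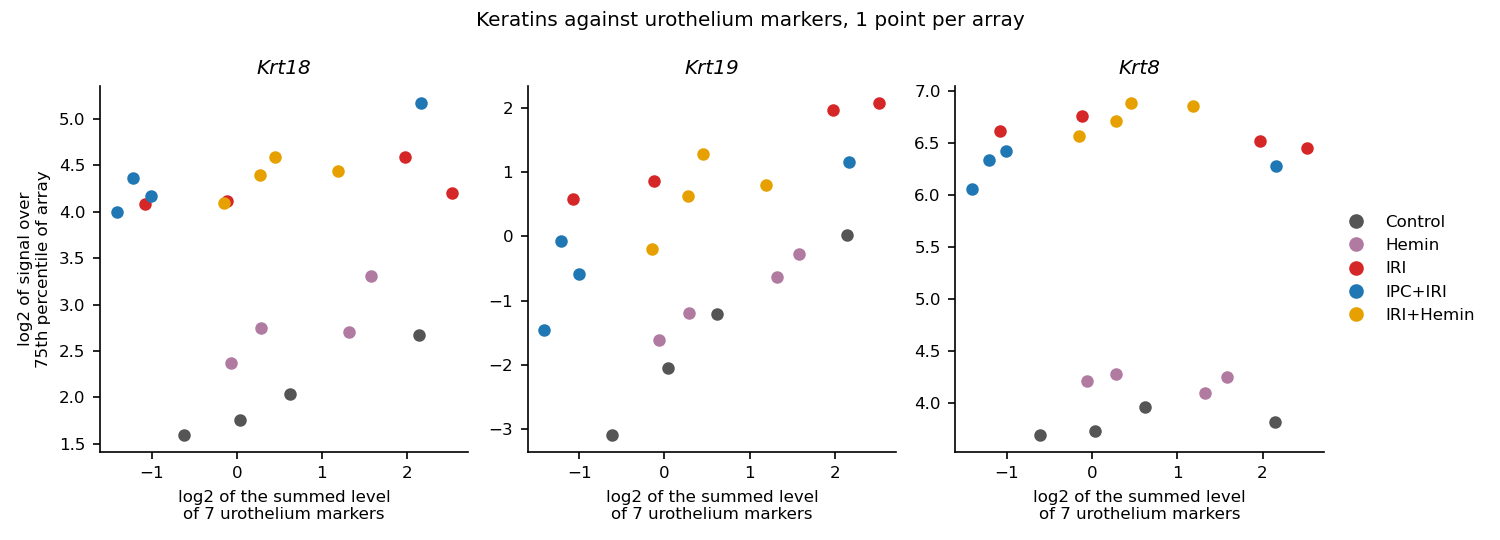
Log2 expression of Krt18, Krt19 and Krt8 (y axes) against the log2 of the summed signal of 7 urothelium markers (x axis), 1 point per array, coloured by group. Krt18 and Krt19 climb along the x axis within each group, whereas Krt8 forms an upper band of injured groups and a lower band of Control and Hemin at any urothelium signal.

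Other genes of tubular injury and repair, formed a list of 28. In IRI vs Control, 14 of 26 tested were higher and 3 lower (median 0.80), with 17.1% of all genes higher and 33.9% lower. Sox9, a transcription factor of regenerating tubule cells, rose by 5.26 (SE 0.34), and Plin2, a lipid droplet coat protein, by 3.27 (SE 0.39). Fabp1, a proximal tubule fatty acid carrier, fell by 1.24 (SE 0.37) and Pax2, a nephron lineage factor, by 0.67 (SE 0.18). In IPC+IRI vs IRI, 6 of 27 were higher and 4 lower (median -0.037), near the 26.3% and 17.8% of all genes, with Sox4 at 2.48 and Fga, a fibrinogen chain, at -1.23. Between IRI+Hemin and IRI, 6 of 27 were higher and 3 lower (median 0.066), near or below the 26.3% and 18.1% of all genes, with the fibrinogen chains Fgg at 2.82 and Fgb at 1.88 on top and Tmsb10, an actin monomer binder, at -1.11.

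Of 11 keratins outside the list, 9 were tested in IRI vs Control, with 17.1% of all genes called higher and 33.9% lower. Krt23, a type I keratin, rose by 2.12 (SE 0.43), Krt16 fell by 1.03 (SE 0.27) and the other 7 were not called (median -0.18). Between IRI+Hemin and IRI, 3 of 10 were higher and none lower, among them Krt4 (1.41) and Krt13 (0.99), keratins of stratified epithelia, where 26.3% of all genes were called higher. Among the 5 keratins of the marker list, probes of different genes shared at most 11 consecutive bases, between Krt8 and Krt18.

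A list of 15 held anchors and chaperones of intermediate filaments and other filament subunits (Des, Nes and the nuclear lamins Lmna and Lmnb1). In IRI vs Control, 10 of the 15 rose and 1 fell (median 0.82), with 17.1% of all genes higher and 33.9% lower. The small heat shock protein Hspb1 rose by 2.60 (SE 0.28) and the keratin-binding plakin Eppk1 by 2.53 (SE 0.27), while the plakin Evpl fell by 1.15 (SE 0.28). Eppk1 then was 1.56 lower in IPC+IRI than in IRI (SE 0.27) and 0.91 lower in IRI+Hemin (SE 0.27). In those comparisons 8 and 6 of 15 were called lower, and 1 and 3 higher, with medians of -0.33 and -0.26. Over all genes, 17.8% and 18.1% were lower, and 26.3% were higher in both. The nuclear lamin Lmnb1 was the largest rise in both, at 2.71 and 2.24.

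Of receptors and ligands of the secreted and surface markers, 6 of 14 tested rose in IRI vs Control and 1 fell (median 0.19). Cd44, a receptor of Spp1, rose by 2.11 (SE 0.30), and Lrp8, a receptor of Clu, by 2.04 (SE 0.26). Lrp2, the megalin that takes up Lcn2 in the proximal tubule, fell by 0.95 (SE 0.10). In IRI+Hemin vs IRI, 3 of 15 were higher and 4 lower (median 0.054), with 26.3% of all genes higher and 18.1% lower, and with the integrin chains Itga4 at 0.65 and Itgb5 at 0.63 on top. Cd44 was 0.80 lower in IRI+Hemin than in IRI (SE 0.30), and so was Itgav, the alpha-v integrin chain, by 0.95 (SE 0.15). Proximal tubule genes fell in 3 of 16 cases in IRI vs Control and rose in none (median -0.14), where 33.9% of all genes were called lower and 17.1% higher, with a median of -0.17. Fibroblast and mural genes, which share Vim, rose in 2 of 8 and fell in 1 (median 0.017), and macrophage and lymphocyte genes rose in 1 of 10 and fell in 3 (median -0.25). No urothelium gene of 7 was called (median 0.46). Podocyte genes fell in 3 of 6 cases and rose in none (median -0.39), and collecting duct genes fell in 4 of 10 and rose in 1 (median -0.042). Cd44, Lrp2 and Krt5 each stood in a pair of these lists.

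Over the 20 arrays, the genes whose log2 expression most resembled that of Krt20 among 17719 candidates were Tubb6 (Pearson r = 0.985), D230037D09Rik (0.984), Cflar (0.981), Mt1 (0.979) and Cdkn1a (0.977). Among those most like Lcn2 were Slc38a2 (0.963), Plaur (0.960), Bcl10 (0.960) and Clcf1 (0.958). For Havcr1 the closest reached only 0.828 (Cd47), followed by H2-Eb1 (0.818), BQ951674 (0.817), Irf8 (0.812) and 4930471M23Rik (0.811). All 3 sets of values are descriptions over the same arrays of 3 injured and 2 uninjured groups.

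The 250 bases before the annotated start of the markers were taken from RefSeq (build GRCm38.p6), which matched 8 of 10 members, with no entry for Clu and Krt19 in the table. They are shown for the marker with the largest change, for the filament pair Krt8 and Krt18 and for Lcn2, which was lower than in IRI in both pretreated groups. Capitals mark matches on either strand, and overlapping matches run together. The TATA box was searched as TATAAA. Sites of TEAD factors, the partners of YAP, were searched as CATTCC. The pattern for NF-kB was GGGNNNNNCC, a loose form of its site. The GC box bound by Sp1 was searched as GGGCGG. Sites of AP-1, the dimer of Fos and Jun, were searched as TGANTCA. The pattern for STAT factors was TTCNNNGAA.
Krt20, chr11:99438154-99438403, minus strand: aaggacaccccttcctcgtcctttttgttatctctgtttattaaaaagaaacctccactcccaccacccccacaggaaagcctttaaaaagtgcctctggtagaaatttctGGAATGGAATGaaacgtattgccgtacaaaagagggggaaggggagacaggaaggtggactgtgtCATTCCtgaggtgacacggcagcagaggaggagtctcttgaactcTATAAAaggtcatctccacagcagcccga
Krt8, chr15:102004343-102004592, minus strand: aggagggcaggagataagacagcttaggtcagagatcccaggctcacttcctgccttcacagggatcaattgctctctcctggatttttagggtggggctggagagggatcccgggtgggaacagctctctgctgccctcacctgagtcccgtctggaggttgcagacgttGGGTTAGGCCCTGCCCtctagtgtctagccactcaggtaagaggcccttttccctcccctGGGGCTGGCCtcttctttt
Krt18, chr15:102027966-102028215, plus strand: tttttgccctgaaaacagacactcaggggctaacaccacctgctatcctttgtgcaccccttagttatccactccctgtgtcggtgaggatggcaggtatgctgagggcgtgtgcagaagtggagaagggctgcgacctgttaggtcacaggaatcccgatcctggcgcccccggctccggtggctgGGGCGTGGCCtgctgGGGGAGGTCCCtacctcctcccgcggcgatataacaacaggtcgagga
Lcn2, chr2:32387740-32387989, minus strand: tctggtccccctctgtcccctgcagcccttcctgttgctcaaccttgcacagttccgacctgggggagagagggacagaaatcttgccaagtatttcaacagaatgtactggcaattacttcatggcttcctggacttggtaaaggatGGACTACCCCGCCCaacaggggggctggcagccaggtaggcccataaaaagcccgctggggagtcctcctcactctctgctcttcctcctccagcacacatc

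The Krt20 window held a TATA box 24 bases before the start and 3 TEAD matches, of which the nearest was 69 bases before it. Of 32851 promoter windows of this length, 12.4% held TATAAA, 12.6% held CATTCC and 0.0913% held at least 3 copies of it. The loose NF-kB pattern matched 4 times in Krt8, 3 times in Krt18 and 1 time in Lcn2, and 45.8% of all windows held it. Lcn2 also held a GC box (32.7% of windows). No window of a marker matched the AP-1 or STAT letters, which were in 6.75% and 7.02% of windows. A match is a description of the letters, and binding of these factors was not measured.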

How the data were processed

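The 20 kidney samples, from C57BL/6 mice, were grouped by their labels. Their RNA was Cy3-labelled and run on Agilent whole mouse genome arrays. The authors deposited the scanner intensity of every spot, from which Agilent Feature Extraction (version 9.5.3.1 in the headers) had subtracted the background, unscaled between arrays. They also deposited a log2 table of that signal, with 18.1% of its cells empty for a reason not given in the sources used here, and it served as an alternative input.

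Non-uniform and population-outlier spots were dropped and saturated ones kept. Replicate spots were averaged, signals were scaled to the 75th percentile of the array, and the log2 of the mean over a gene name's probes was used (43379 non-control spots, 41174 probes, 27827 names). All 10 member symbols were current. Testing required no more than 1 missing value in the 8 arrays compared, and a signal well above background on 3 or more of the 4 arrays in at least 1 of the groups. A linear model with 5 group means and 15 residual degrees of freedom was fitted in R 4.3.3 with limma 3.58.1, with version 1.17.8 of the data.table package, and p-values were corrected by Benjamini and Hochberg's method within a comparison. This step was tested on simulated data. For 4 against 4 arrays, the exact permutation p cannot fall below 0.029. The number of arrays limits the precision.

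Members and gene lists were chosen with earlier results of these data known. Every member is named in the main comparisons. Of the other lists, no more than 2 called genes per direction and comparison are named, those with the largest changes. One gene among those most like Lcn2 is not reported here. The use of the Havcr1 junction probe alone, the omission of the array highest in urothelium markers from each group, those markers as a covariate, the Krt20 bound without Control replicate 2, and the comparisons of injured groups with Hemin were added after the data were seen.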

Additional observations from a re-analysis of the deposited data

How the results depend on the processing

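Among the member values recomputed under alternative settings, 2449 kept their direction and side of the threshold, 149 lost and 43 gained a call, and 59 changed sign. The causes were not tested. The number of markers called moved by over 1.5 times as follows. In IPC+IRI vs IRI (4) it was 2 with normexp, without normalization between arrays, with the deposited matrix, with a 2-fold cutoff, with SAM and with the compared arrays alone. Of the 4 lower calls only that of Lcn2 was left without normalization and with the matrix, where Spp1 was called higher. In IRI+Hemin vs IRI (4) it was 1 without normalization, a higher call of Spp1 with no lower call, and 1 with a 2-fold cutoff and without the arrays highest in urothelium markers. It was split into 1 higher and 3 lower with normexp and 2 higher and 1 lower with the matrix. In Hemin vs Control (2, both higher) it was 4 without normalization, 4 with SAM and with the compared arrays alone (2 of them lower), 1 with quantile normalization (lower) and 0 with a 2-fold cutoff. Of the 18579 genes tested there, 8824 were called higher and 490 lower without normalization, and 5262 and 4465 with SAM. With the compared arrays alone 4016 were higher and 3636 lower, and with quantile normalization 3670 and 3402. In IPC+IRI vs IRI+Hemin (2) it was 0 without normalization, with SAM and with the compared arrays alone, and 1 with a 2-fold cutoff and without the urothelium-high arrays. The matrix gave 5 in IPC+IRI vs Control and 6 in IRI vs Hemin, and a 2-fold cutoff gave 5 in IPC+IRI vs Control and in IRI+Hemin vs Control. Without normalization the median of all genes ran from -0.68 in IRI vs Hemin to 0.62 in Hemin vs Control. In that setting 5910 of 17668 genes were called higher and 603 lower in IPC+IRI vs IRI. In IRI+Hemin vs IRI 6539 of 17835 were higher and 620 lower, and in IPC+IRI vs IRI+Hemin 183 of 18095 were higher and 176 lower.

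With each array left out in turn, the counts were 9 in IRI vs Control, 8 to 9 in IPC+IRI vs Control, 2 to 4 in IPC+IRI vs IRI and in IRI+Hemin vs IRI, 1 to 3 in Hemin vs Control, 6 to 8 in IRI+Hemin vs Control, 1 to 2 in IPC+IRI vs IRI+Hemin, 0 in the interaction, 6 to 8 in IRI+Hemin vs Hemin, 7 to 9 in IPC+IRI vs Hemin and 10 in IRI vs Hemin. The replicate numbers did not pair the samples: over 40 pairs of same-numbered arrays, deviations from the group means correlated between -0.31 and 0.19 (median -0.031), and 6 pairs were over 0.1. With the replicate number as a block, the count was 10 in IRI vs Control, where Havcr1 was called (adjusted p 0.0344), and as in the fit without the block in the other comparisons. Slide as a random block was not run, since each group lies on a single slide.

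Values that changed sign, as log2 fold changes, were uncalled in the reported fit except Krt8 in IPC+IRI vs IRI, Vim in IRI+Hemin vs Control and Krt7 in IPC+IRI vs Hemin. With normexp they were Krt7 at 0.016 in IPC+IRI vs IRI, Krt20 at -0.28 in Hemin vs Control, Clu at 0.23 in IRI+Hemin vs Control, Clu at -0.17 and Krt18 at -0.0100 in IPC+IRI vs IRI+Hemin, and Krt20 at 0.23 in the interaction. Without normalization they were Krt7 at 0.23 and Krt8 at 0.0087 in IPC+IRI vs IRI, Krt7 at 0.18 in IRI+Hemin vs IRI, Lcn2 at 0.30, Clu at 0.20 and Vim at 0.42 in Hemin vs Control, Havcr1 at 0.36 and Clu at 0.48 in IRI+Hemin vs Control, Krt18 at -0.0015 in IPC+IRI vs IRI+Hemin, and Spp1 at -0.092 in the interaction. Quantile normalization gave Clu at -0.13 in IPC+IRI vs Control, Krt7 at -0.070 in Hemin vs Control and Spp1 at -0.016 in the interaction, and scaling by probes well above background gave -0.030 and -0.014 for the former pair. The brightest probe gave Havcr1 at -0.075 in IPC+IRI vs IRI. The mean of log2 values, in which the Vim probe that was never above background counts equally, gave Havcr1 at 0.52 and Vim at -0.11 in IRI+Hemin vs Control and Krt7 at -0.00025 in IPC+IRI vs IRI+Hemin. The matrix gave Clu at 0.014 in IRI+Hemin vs Control, Krt7 at -0.50 and Krt18 at -0.019 in IPC+IRI vs IRI+Hemin, Havcr1 at -0.40 in IRI+Hemin vs Hemin and Krt7 at -0.26 in IPC+IRI vs Hemin. The junction probe gave Havcr1 at 1.36 in IRI+Hemin vs Control. Without the urothelium-high arrays they were Krt7 at 0.036 and Krt18 at -0.089 in IPC+IRI vs IRI, Krt20 at 0.039 in IRI+Hemin vs IRI, Havcr1 at 0.083 and Clu at 0.15 in IRI+Hemin vs Control, Spp1 at 0.016 and Krt18 at -0.18 in IPC+IRI vs IRI+Hemin, and Spp1 at -0.13 in the interaction. With urothelium as a covariate, Clu was at -0.022 in IPC+IRI vs Control and at -0.0043 in IPC+IRI vs IRI+Hemin.

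With arrays left out in turn, values that crossed 0 ran from -0.61 to 0.12 for Lcn2 in Hemin vs Control. In IRI+Hemin vs Control they ran from -0.065 to 0.13 for Clu and from -0.30 to 0.095 for Havcr1, and in IPC+IRI vs Control from -0.089 to 0.20 for Clu. They ran from -0.072 to 0.32 for Krt18 and from -0.15 to 0.46 for Havcr1 in IPC+IRI vs IRI, from -0.66 to 0.080 for Krt20 in IRI+Hemin vs IRI, and from -0.023 to 0.21 for Spp1 in the interaction. In IPC+IRI vs IRI+Hemin they ran from -0.20 to 0.19 for Krt18, from -0.083 to 0.21 for Clu, from -0.0015 to 0.17 for Krt7, from -0.91 to 0.088 for Krt20 and from -0.13 to 0.026 for Spp1. Signal over background limits Krt20 in Control and Lcn2 in Hemin.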
